A study of Mus musculus with 8 samples.

Results

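Tetraspanins were followed in 8 RNA-seq libraries of mouse splenic dendritic cells. They were taken as every protein-coding gene named Tspan followed by a number, together with Cd9, Cd37, Cd53, Cd63, Cd81, Cd82 and Cd151, which gave 27 of the 55487 genes in the deposited tables. The study compared 2 sorted populations, cDC1 and cDC2, from untreated C57BL/6 mice. Wild-type (WT) cDC1, WT cDC2, cDC1 of the genotype Zeb2 -165(d1+2+3) and cDC2 of the genotype Irf8 +32-/- were each represented by 2 libraries, numbered replicate 2 and replicate 3, from 100000 cells a library. Both mutations lie in enhancers, of Zeb2 and of Irf8, and each was profiled in a single cell type, so the effect of either mutation in the other cell type was not measured. The sources used here give neither the age or pooling of the animals nor the sort gates, and each p-value reflects only how far these libraries spread, which may be technical.

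Tetraspanins are small proteins that pass through the membrane several times and hold integrins, immune receptors, proteases and MHC class II molecules together in clusters at the cell surface and in endosomes. A subgroup named TspanC8 binds the protease ADAM10, escorts it out of the endoplasmic reticulum and steers which surface proteins, Notch receptors among them, it cleaves. Cd37, Cd53 and Tspan32 are largely restricted to blood cells, Cd9 and Cd81 are widespread partners of integrins and of immunoglobulin-superfamily proteins, and Cd63 marks late endosomes and exosomes. Of the cells compared, cDC1 specialise in presenting antigen of dead cells on MHC class I, and cDC2 in priming CD4+ T cells.

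The libraries held 49380686 to 58611821 counts, of which the tetraspanins took 126824 to 182954. All 10 cDC1 markers were higher and all 10 cDC2 markers lower in cDC1 than in cDC2, in WT and in the mutants. Irf8 stood at 3263 and 3641 CPM (read counts relative to library size, after TMM scaling) in WT cDC1 and 3709 and 3439 in the Zeb2 mutant, against 126 and 104 in WT cDC2 and 147 and 120.0 in the Irf8 mutant. Zeb2 stood at 2.09 and 2.10 CPM in WT cDC1 and 2.24 and 3.54 in its mutant, against 200.5 and 200.3 in WT cDC2 and 197 and 172 in the Irf8 mutant. Neither targeted gene passed the test between its mutant and WT (adjusted p = 0.914 for Irf8 in cDC2 and 0.477 for Zeb2 in cDC1). Since the mutated sequences are enhancers, the counts of these genes are no direct check of the genotype labels. In sorted bulk samples, fewer cells of a type and less RNA per cell cannot be told apart. Each per-library value is given for replicate 2 first and replicate 3 second.

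Of the 27 tetraspanin genes, 19 passed the count filter and were tested, and 17 reached 1 CPM in both libraries of at least 1 group. The 8 untested genes were Tspan1, Tspan6, Tspan7, Tspan8, Tspan10, Tspan11, Tspan12 and Tspan18, each with some reads but with at most 0.565 CPM, or 33 counts, in any library. The 2 tested genes for which no group had both libraries at 1 CPM or more were Cd151 and Tspan15. Genes were compared per kilobase of the deposited exon length. That length can differ from the length of the transcript expressed, so the order of genes on this scale is approximate. Tspan13 was the most abundant in WT cDC1 at a mean of 277 CPM per kilobase, followed by Cd53 at 235, Cd81 at 173, Cd9 at 144 and Cd82 at 98.5. In WT cDC2 Tspan13, at 312, and Cd53, at 297, again stood first, then Cd82 at 94.3 and Tspan3 at 59.7, while Cd9 was at 52.1 and Cd81 at 27.5. The dendritic cells thus carried a few abundant tetraspanin transcripts and a long tail, and the order of the abundant ones differed between cell types. Summed per kilobase, all 27 genes gave 1243 and 939 in WT cDC1, 975 and 1093 in the Zeb2 mutant, 1004 and 976 in WT cDC2 and 1133 and 1032 in the Irf8 mutant. These sums overlapped between the cell types.

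**Figure D1:**
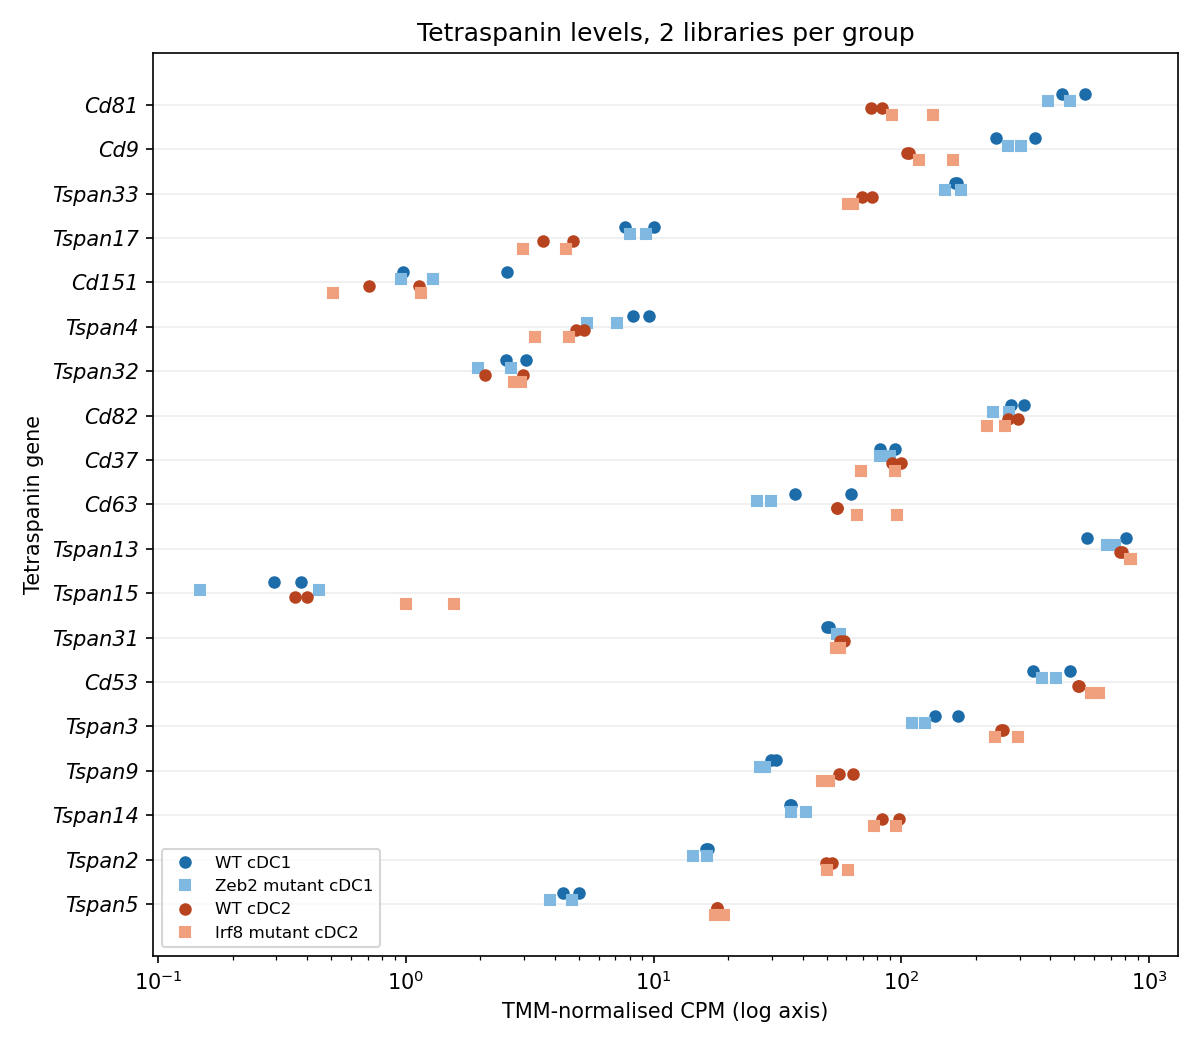
Level of the 19 tested tetraspanins in each library, as TMM-normalised CPM on a log axis; circles are WT and squares mutant libraries, blue cDC1 and red cDC2. Genes are ordered from the highest (top) to the lowest log2 fold change between WT cDC1 and WT cDC2; Cd81 lies between 389.9 and 551.5 CPM in the 4 cDC1 libraries and between 75.1 and 134 CPM in the 4 cDC2 libraries.

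The difference between the cell types was asked in WT and, in libraries that share no sample with it, between the mutants. Between the mutants, genotype and cell type both differ and cannot be told apart. Both comparisons come from the same fit, which shares its estimate of the spread over the 8 libraries, so their p-values are not independent. Between WT cDC1 and WT cDC2, 5 tetraspanins were higher in cDC1 and 5 lower at an adjusted p under 0.05 (edgeR's quasi-likelihood test with Benjamini-Hochberg adjustment over 20631 genes, as for every adjusted p given for this series), beside 14.2% of all tested genes called higher and 15.9% called lower. The genes higher in cDC1 were Cd81, Cd9, Tspan33, Tspan17 and Tspan4, and those lower were Tspan5, Tspan2, Tspan14, Tspan9 and Tspan3. With a gene length trend removed the split was 3 higher and 7 lower, and without WT cDC2 replicate 2 it was 3 and 5. Between Zeb2 mutant cDC1 and Irf8 mutant cDC2, 4 tetraspanins were higher and 8 lower, beside 12.8% and 15% of all tested genes. Of these calls, 9 were made in both comparisons, in the same direction each time, 1 in WT alone (Tspan4) and 3 in the mutants alone (Cd53, Cd63 and Tspan15). The difference between the comparisons was tested directly and passed the threshold for none of these 4 genes in edgeR (smallest adjusted p = 0.348, for Cd63, also the only one of the 4 with an unadjusted p under 0.05 and the only one that DESeq2 called). The median log2 fold change of the 19 genes was -0.13 in WT, against 0.03 over all tested genes, and the median size of the change was 0.82 against 0.66.

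**Figure D2:**
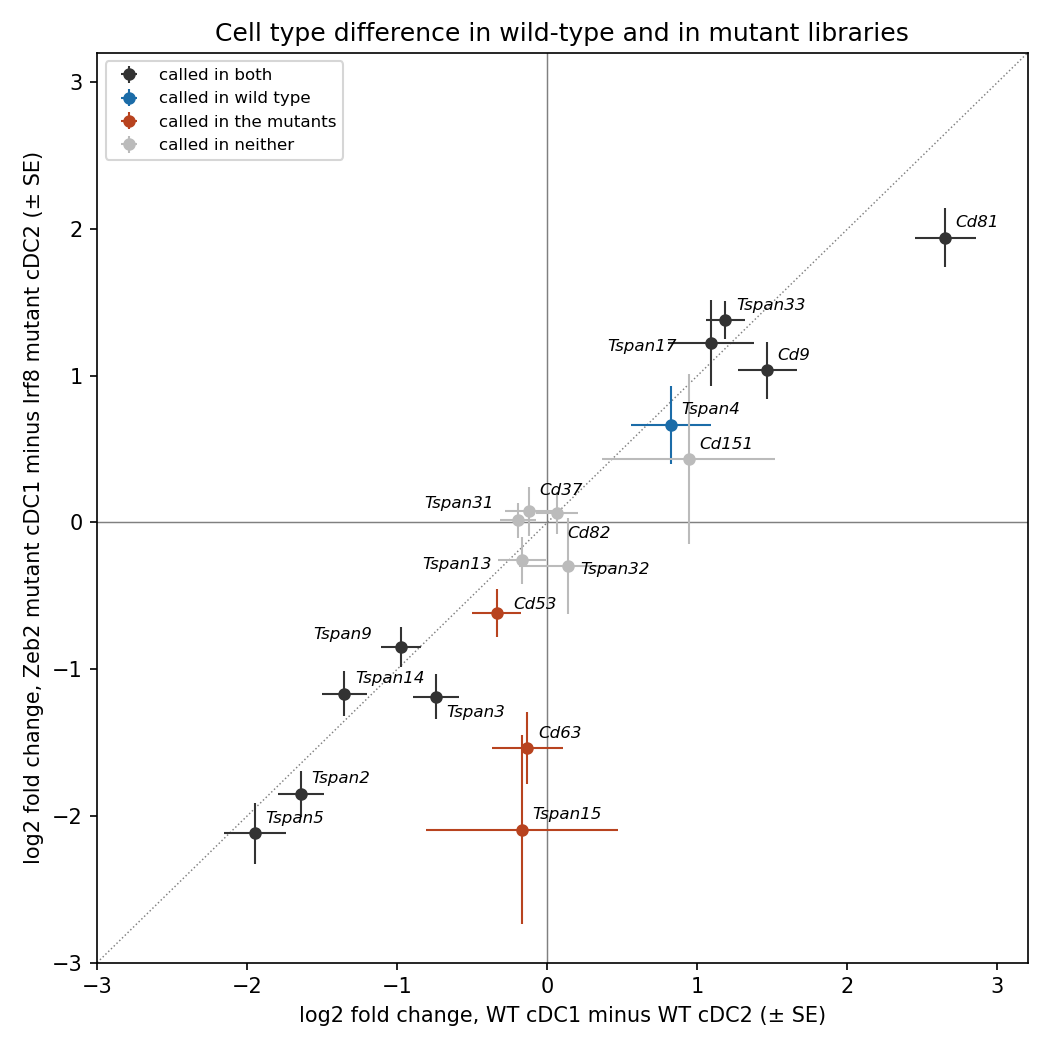
Log2 fold change of each tested tetraspanin between cDC1 and cDC2, in WT libraries (horizontal axis) and between the Zeb2 and Irf8 mutants (vertical axis); bars are standard errors, colours give the comparisons in which the gene was called, and the dotted line marks equal values. Cd81 lies at 2.65 and 1.94, Tspan5 at -1.95 and -2.12, and Cd63 and Tspan15 lie far below the dotted line.

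Among the broadly expressed tetraspanins, Cd81 and Cd9 set the cell types apart and Cd82 did not. Cd81, a partner of integrins, stood at 551.5 and 445 CPM in WT cDC1, 389.9 and 478 in Zeb2 mutant cDC1, 83.4 and 75.1 in WT cDC2 and 134 and 91.5 in Irf8 mutant cDC2. All 4 cDC1 libraries lay far above all 4 cDC2 libraries. The WT difference was 6.28-fold, a log2 fold change of 2.65 (SE 0.21, adjusted p = 6.03e-06), and that between the mutants 3.84-fold, 1.94 (SE 0.20, adjusted p = 4.45e-05). Cd9, which binds integrins and restrains or permits membrane fusion, stood at 347 and 242 CPM in WT cDC1, 269 and 304 in Zeb2 mutant cDC1, 108 and 105 in WT cDC2 and 161 and 118 in Irf8 mutant cDC2. The groups again did not overlap, with the Irf8 mutant libraries nearest to cDC1. Cd9 was 2.76-fold higher in WT cDC1 (log2 fold change 1.47, SE 0.20, adjusted p = 2.79e-04) and 2.05-fold higher between the mutants (1.04, SE 0.19, adjusted p = 0.00252). Cd81 lies at chr7:143052739-143067934 and shares 104 exon bases with R74862 on the other strand, and Cd9 lies at chr6:125460266-125494791 and shares 218 with Gm26728 (GRCm38). The library kit does not mark strand, so reads in those bases cannot be assigned to a strand. B cells and platelets also carry Cd81 and Cd9. The 8 B cell markers summed to 26.2 to 40.0 CPM in WT cDC1 and 30.3 to 35.8 in WT cDC2, with 4 of the 8 under 1 CPM in every library, and the 7 platelet markers to 3.99 to 10.4 and 4.37 to 4.89, with Gp1bb at 0 and 4 under 1 CPM. Both sums overlapped between the WT groups, and 1 platelet marker was called higher in WT cDC1. The B cell sums held opposite differences between WT cDC1 and WT cDC2. There, 1 marker was called higher in WT cDC1 (Ms4a1, means of 28.3 against 6.64 CPM, adjusted p = 6.49e-04) and 1 lower (Cd79b, 1.74 against 21.7 CPM, adjusted p = 5.23e-06). In Zeb2 mutant cDC1 and Irf8 mutant cDC2 the platelet markers summed to 9.66 to 9.99 and 2.97 to 3.39 CPM, with 2 called higher in the former (Itga2b, adjusted p = 0.0142, and Gp9, adjusted p = 0.0408), and the B cell markers to 29.64 to 31.0 and 22.7 to 29.63, with 1 called in each direction. The part of these markers in the differences of Cd81 and Cd9 was not tested.

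Cd82, a tetraspanin that slows cell migration, was abundant in every group: 314 and 278 CPM in WT cDC1, 234 and 273 in Zeb2 mutant cDC1, 297 and 269.7 in WT cDC2, and 263 and 222 in Irf8 mutant cDC2. The cell types overlapped in both comparisons, and the log2 fold change was 0.06 both in WT (SE 0.14, adjusted p = 0.787) and between the mutants (SE 0.14, adjusted p = 0.79). Each mutant lay below WT of its own cell type without overlap, with a log2 fold change of -0.22 (SE 0.14) in both. Neither difference was called (adjusted p = 0.615 in the Zeb2 mutant and 0.894 in the Irf8 mutant). Cd151, a partner of laminin-binding integrins, stayed between 0.51 and 2.56 CPM in all libraries and was not called.

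Of the leukocyte tetraspanins, Cd53 was called lower in Zeb2 mutant cDC1 than in Irf8 mutant cDC2, and Cd37 and Tspan32 were not called. Cd53 was the most abundant of them, at 480.4 and 338 CPM in WT cDC1, 368 and 421 in Zeb2 mutant cDC1, 514 and 521 in WT cDC2 and 629.5 and 581 in Irf8 mutant cDC2. The cDC1 libraries were all below the cDC2 libraries. The log2 fold change was -0.34 in WT (SE 0.16, adjusted p = 0.155) and -0.62 between the mutants (SE 0.16, adjusted p = 0.0176), and the difference of these values was not called. Without WT cDC1 replicate 2 the WT value was -0.62 and called (adjusted p = 0.00359), and without replicate 3 it was -0.11 (adjusted p = 0.584). With a gene length trend removed it was -0.71 and called (adjusted p = 0.00183). Leaving out any of the 4 mutant libraries took the call between the mutants past the threshold, at adjusted p of 0.0534 to 0.157. Cd37, a B cell and dendritic cell tetraspanin, lay between 68.6 and 100.1 CPM in the 8 libraries, and Tspan32 between 1.96 and 3.04. Neither was called in any comparison, with log2 fold changes between WT cell types of -0.12 (SE 0.16) and 0.14 (SE 0.33).

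The TspanC8 genes differed in opposite directions between the cell types. Tspan33 and Tspan17 were higher in cDC1, and Tspan14 and Tspan5 were higher in cDC2. Tspan33, known from erythroid cells and activated B cells, stood at 168 and 164 CPM in WT cDC1, 150.1 and 175 in Zeb2 mutant cDC1, 76.2 and 69.6 in WT cDC2 and 61.1 and 63.8 in Irf8 mutant cDC2. Every cDC1 library exceeded every cDC2 library, by 2.28-fold in WT means (log2 fold change 1.19, SE 0.13, adjusted p = 6.1e-05) and 2.60-fold in the mutants (1.38, SE 0.13, adjusted p = 2.18e-05). Tspan17 was far less abundant, at 10.0 and 7.68 CPM in WT cDC1, 8.03 and 9.275 in Zeb2 mutant cDC1, 3.58 and 4.725 in WT cDC2 and 4.45 and 2.96 in Irf8 mutant cDC2. It did not overlap between the cell types (2.13-fold in WT, log2 fold change 1.09, SE 0.29, adjusted p = 0.0159; 2.34-fold between the mutants, 1.22, SE 0.29, adjusted p = 0.00975). Its WT call was lost without WT cDC1 replicate 2 or WT cDC2 replicate 2 and with a gene length trend removed (adjusted p 0.0802 to 0.132), and its mutant call without Irf8 mutant replicate 3 or Zeb2 mutant replicate 3 (0.0504 to 0.0638).

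Tspan14, which takes ADAM10 to the surface in many cells, stood at 35.5 and 35.8 CPM in WT cDC1, 41.1 and 35.7 in Zeb2 mutant cDC1, 98.3 and 83.8 in WT cDC2 and 94.9 and 77.4 in Irf8 mutant cDC2. The cDC2 libraries were all above the cDC1 libraries, 2.55-fold in WT (log2 fold change -1.35, SE 0.15, adjusted p = 8.3e-05) and 2.24-fold in the mutants (-1.17, SE 0.15, adjusted p = 2.34e-04). Tspan5, a TspanC8 member that promotes Notch cleavage, stood at 4.30 and 5.01 CPM in WT cDC1, 4.68 and 3.835 in Zeb2 mutant cDC1, 17.9 and 18.0 in WT cDC2 and 19.3 and 17.7 in Irf8 mutant cDC2. It had the largest difference of the 4, 3.86-fold higher in WT cDC2 (log2 fold change -1.95, SE 0.21, adjusted p = 5.35e-05) and 4.35-fold higher in the Irf8 mutant than in the Zeb2 mutant (-2.12, SE 0.21, adjusted p = 3.14e-05). The 5 erythroid markers, of a lineage that also carries Tspan33, summed to 6.06 to 11.5 CPM in WT cDC1 and 7.33 to 10.3 in WT cDC2, which overlapped, and reached 70.1 in Irf8 mutant replicate 2. Of these markers, 1 was called higher in WT cDC1 (Car1, means of 4.71 against 0.261 CPM, adjusted p = 0.0258), and 0 were called between the mutants. Their part in the values of Tspan33 was not tested.

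Added up per kilobase, the 6 TspanC8 genes gave 52.4 and 50.6 in WT cDC1, 49.9 and 53.3 in Zeb2 mutant cDC1, 56.5 and 50.4 in WT cDC2 and 53.1 and 45.8 in Irf8 mutant cDC2. On this scale the total was similar in all groups while its make-up was not. Both the total and the shares depend on the exon lengths used. Tspan33 made up 57.9% to 63.2% of it in the 4 cDC1 libraries and 22.1% to 26.8% in the 4 cDC2 libraries. Tspan14 made up 25.3% to 31.0% in cDC1 and 62.8% to 67.4% in cDC2. Tspan17 took 9.16% to 11.6% in cDC1 and 3.83% to 5.66% in cDC2, and Tspan5, whose exons are long, 0.975% to 1.34% and 4.30% to 5.23%. Tspan15 and Tspan10 together added less than any of these in every library. The shares follow from the levels just given and were not tested separately.

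**Figure D3:**
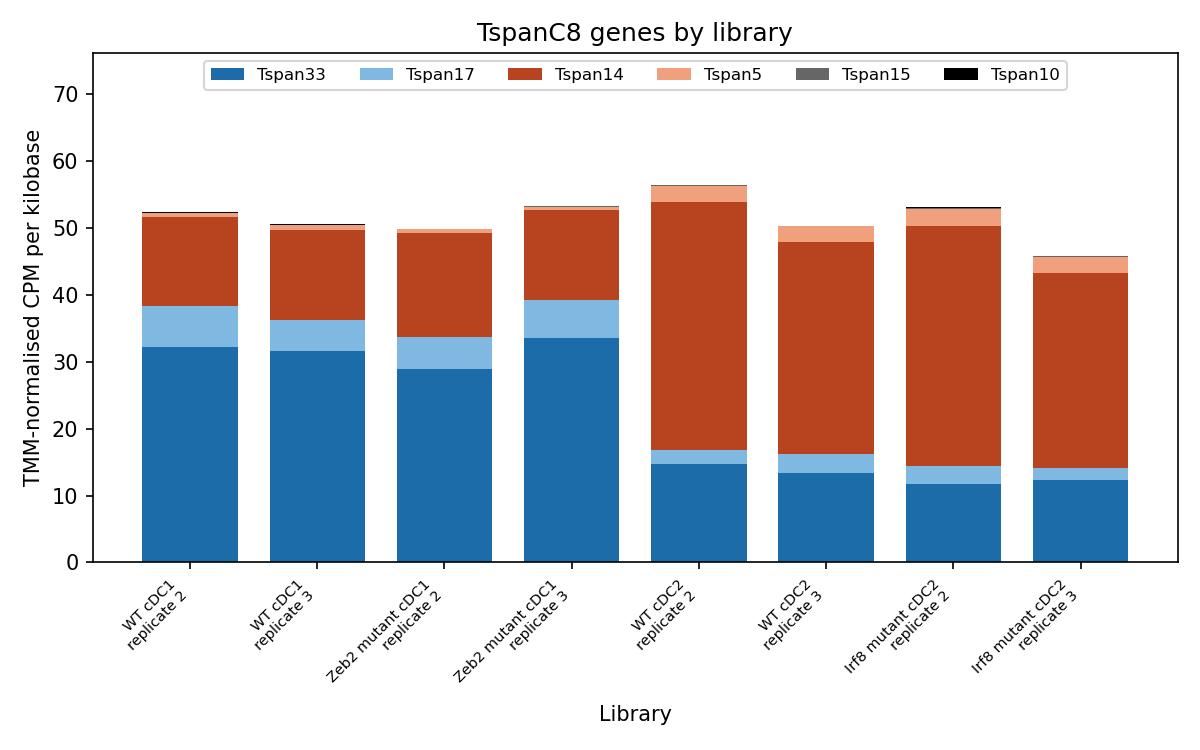
TMM-normalised CPM per kilobase of the 6 TspanC8 genes, stacked for each of the 8 libraries. The stacks reach 45.8 to 56.5; Tspan33 (dark blue) is the largest part in the 4 cDC1 libraries and Tspan14 (dark red) in the 4 cDC2 libraries.

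The promoters of Cd81, Cd9 and Tspan33, higher in cDC1, and of Tspan14 and Tspan5, higher in cDC2, are shown as examples. These genes are 5 of the 9 called in the same direction in both sets of libraries. Each line holds the 250 bases before a RefSeq start on GRCm38.p6, 5′ to 3′ on the gene's strand, with matches to the motifs searched in capitals. Tspan14 has 2 windows, and the one farthest upstream is printed. Of 3 Tspan14 transcripts in GENCODE M21, 0 held the bases checked after that start, while each other printed gene had at least 1 that did. The windows are chr7:143052500-143052749 (plus strand) for Cd81, chr6:125494761-125495010 (minus) for Cd9, chr6:29693964-29694213 (plus) for Tspan33, chr14:40966897-40967146 (minus) for Tspan14 and chr3:138741958-138742207 (plus) for Tspan5.
Cd81: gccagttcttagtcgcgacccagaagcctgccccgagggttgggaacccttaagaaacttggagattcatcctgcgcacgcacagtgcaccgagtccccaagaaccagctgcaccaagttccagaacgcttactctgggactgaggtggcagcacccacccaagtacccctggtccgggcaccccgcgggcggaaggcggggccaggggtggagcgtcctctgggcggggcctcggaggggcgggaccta
Cd9: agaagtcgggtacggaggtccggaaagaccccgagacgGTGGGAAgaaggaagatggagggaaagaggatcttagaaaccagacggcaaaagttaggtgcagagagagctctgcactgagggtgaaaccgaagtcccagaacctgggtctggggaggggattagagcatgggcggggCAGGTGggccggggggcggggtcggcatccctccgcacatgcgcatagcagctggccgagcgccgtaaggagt
Tspan33: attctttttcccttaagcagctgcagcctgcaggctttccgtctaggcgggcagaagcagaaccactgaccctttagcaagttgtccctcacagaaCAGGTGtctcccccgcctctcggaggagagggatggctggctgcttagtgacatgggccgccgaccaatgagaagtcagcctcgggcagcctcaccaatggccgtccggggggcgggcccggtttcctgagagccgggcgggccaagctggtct
Tspan14: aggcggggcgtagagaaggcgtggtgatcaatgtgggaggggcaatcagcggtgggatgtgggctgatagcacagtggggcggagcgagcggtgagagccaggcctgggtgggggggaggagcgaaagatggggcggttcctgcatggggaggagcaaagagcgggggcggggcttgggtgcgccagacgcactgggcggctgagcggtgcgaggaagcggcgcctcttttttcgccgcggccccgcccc
Tspan5: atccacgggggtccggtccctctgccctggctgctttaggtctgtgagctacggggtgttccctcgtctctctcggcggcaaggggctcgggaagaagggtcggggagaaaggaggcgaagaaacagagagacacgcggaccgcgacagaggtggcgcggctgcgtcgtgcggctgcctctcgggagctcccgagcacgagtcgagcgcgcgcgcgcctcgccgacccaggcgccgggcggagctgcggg
In these 5 windows G and C made up 65.6%, 61.6%, 62.4%, 69.6% and 70.8% of the bases, against a median of 52.4% over 32851 RefSeq windows. The motifs were searched on both strands in windows of 26 of the 27 genes. The E-box CACCTG, which ZEB proteins bind, was in 9 of their 36 windows, belonging to 7 genes, and in 17.2% of all windows. It was in those of Tspan33, Cd9 and Tspan4 among the 5 genes higher in WT cDC1, where it reads CAGGTG on the printed strand of the first 2, in none of the 5 lower genes, and in those of Cd82, Cd151 and Cd37 among the 9 tested genes not called. The RBPJ motif GTGGGAA, bound by the effector of Notch signalling, was in 5.42% of all windows and in 2 of the 26 genes' windows, that of Cd9 among them. The composite element GGAANNGAAA, bound by PU.1 with IRF8 or IRF4, was in 2.3% of all windows and GAAANNGAAA, the interferon-stimulated response element, in 2.98%; neither was in a tetraspanin window. The AP-1 motif TGANTCA was in 6.75% of windows and, of the tetraspanins, in that of Tspan15. These matches describe letters in the windows and no binding was measured.

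Of the remaining tetraspanins, Tspan2, Tspan9 and Tspan3 were higher in cDC2 and Tspan4 in WT cDC1. Tspan2, known from oligodendrocytes, stood at 16.5 and 16.2 CPM in WT cDC1, 16.4 and 14.4 in Zeb2 mutant cDC1, 49.7 and 52.7 in WT cDC2 and 50.2 and 60.9 in Irf8 mutant cDC2. The cell types did not overlap, with a 3.13-fold difference in WT (log2 fold change -1.64, SE 0.15, adjusted p = 2.2e-05) and 3.61-fold in the mutants (-1.85, SE 0.15, adjusted p = 1e-05). Tspan9, known from platelets, stood at 31.1 and 29.8 CPM in WT cDC1, 28.2 and 26.8 in Zeb2 mutant cDC1, 64.0 and 56.0 in WT cDC2 and 47.9 and 51.1 in Irf8 mutant cDC2. It was higher in every cDC2 library, 1.97-fold in WT (log2 fold change -0.98, SE 0.13, adjusted p = 3.45e-04) and 1.80-fold in the mutants (-0.85, SE 0.14, adjusted p = 8.79e-04). The sums of platelet markers overlapped between WT cDC1 and WT cDC2, and between the mutants they did not, as given for Cd9.

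Tspan3, a widely expressed tetraspanin of the surface and endosomes, stood at 169 and 136 CPM in WT cDC1, 111 and 124 in Zeb2 mutant cDC1, 258 and 253 in WT cDC2 and 295 and 239.8 in Irf8 mutant cDC2. The cDC2 libraries were all higher, 1.67-fold in WT (log2 fold change -0.74, SE 0.15, adjusted p = 0.00415) and 2.28-fold in the mutants (-1.19, SE 0.15, adjusted p = 2.19e-04). Monocyte and macrophage markers moved the same way, with 5 of 9 lower and 2 higher in WT cDC1 and sums of 745 to 1223 CPM in WT cDC1, 685 to 990.3 in the Zeb2 mutant, 1618 to 1651 in WT cDC2 and 1186 to 1449 in the Irf8 mutant, and their part in the cDC2 levels of Tspan2, Tspan3, Tspan5, Tspan9 and Tspan14 was not tested. Tspan4, found in the tracks that migrating cells leave behind, stood at 9.59 and 8.28 CPM in WT cDC1, 5.40 and 7.12 in Zeb2 mutant cDC1, 4.87 and 5.22 in WT cDC2 and 4.56 and 3.32 in Irf8 mutant cDC2. WT cDC1 was highest, and the other groups lay between 3.32 and 7.12 CPM. It was 1.77-fold higher in WT cDC1 than WT cDC2 (log2 fold change 0.82, SE 0.27, adjusted p = 0.039) and 1.59-fold higher between the mutants, short of the threshold (0.67, SE 0.27, adjusted p = 0.0933). The WT call was lost without WT cDC1 replicate 2, without either WT cDC2 library, without either Zeb2 mutant library, with the replicate number as a block and with a gene length trend removed (adjusted p 0.0547 to 0.191), and Tspan4 shares 292 exon bases with Chid1 on the other strand.

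Per kilobase, Tspan13 ranked first in every group except Irf8 mutant cDC2, where Cd53 was at 347.5 and Tspan13 at 340.1 CPM per kilobase. Tspan13 stood at 811 and 561 CPM in WT cDC1, 674 and 732 in Zeb2 mutant cDC1, 779 and 763 in WT cDC2 and 845 and 838 in Irf8 mutant cDC2. The WT cDC1 libraries spanned both WT cDC2 libraries, and the log2 fold change of -0.17 (SE 0.16, adjusted p = 0.492) was not called. Without WT cDC1 replicate 2 it was -0.47 and called (adjusted p = 0.011), and without replicate 3 it was 0.08. Tspan31 lay between 49.9 and 58.8 CPM in all libraries and was not called (log2 fold change -0.19, SE 0.12, adjusted p = 0.266 in WT); with a gene length trend removed it was called lower in WT cDC1, at -0.44 (adjusted p = 0.0192). It shares 641 exon bases with Cdk4 on the other strand, the largest overlap of any tetraspanin. In WT cDC1, replicate 2 was above replicate 3 for 16 of the 19 genes, by a median ratio of 1.16, and for 9 genes by more than 1.2 times. In the Irf8 mutant the median ratio was 1.19, in WT cDC2 1.04 and in the Zeb2 mutant 0.922.

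Each mutant was next compared with WT of its own cell type, which shares the WT libraries with the comparison of WT cell types. In Zeb2 mutant cDC1, edgeR called 0 of the 19 tetraspanins, beside 0.0145% of all genes called higher and 0.0533% lower. At an unadjusted p under 0.05 there were 2, Cd63 and Tspan3, beside 1135 of the 20631 tested genes higher and 1041 lower. DESeq2 called 1, Cd63. In Irf8 mutant cDC2, edgeR called 0, beside 0% of all genes in either direction, and DESeq2 called 0. Here 3 had an unadjusted p under 0.05 (Cd63, Cd81 and Tspan15), beside 687 of the 20631 genes higher and 626 lower. For the difference of these effects, edgeR called 0 tetraspanins, beside 0% of all genes higher and 0.0194% lower, and DESeq2 called 1, Cd63. Here 2 had an unadjusted p under 0.05 (Cd63 and Cd81), beside 785 of the 20631 genes higher and 788 lower. Of the genes called between the cell types in WT and between the mutants, Tspan5 differed from WT by -0.13 (SE 0.20) in the Zeb2 mutant and 0.04 (SE 0.20) in the Irf8 mutant on the log2 scale, Tspan2 by -0.09 (SE 0.15) and 0.12 (SE 0.15), Tspan14 by 0.11 (SE 0.15) and -0.08 (SE 0.15) and Tspan33 by -0.03 (SE 0.13) and -0.22 (SE 0.13). In the same order, Cd81 differed by -0.20 (SE 0.19) and 0.51 (SE 0.19), and Cd9 by -0.04 (SE 0.19) and 0.39 (SE 0.19). A call that misses the threshold does not show that these levels are alike, and with 2 libraries a group changes of the size of the standard errors are not detectable.

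**Figure D4:**
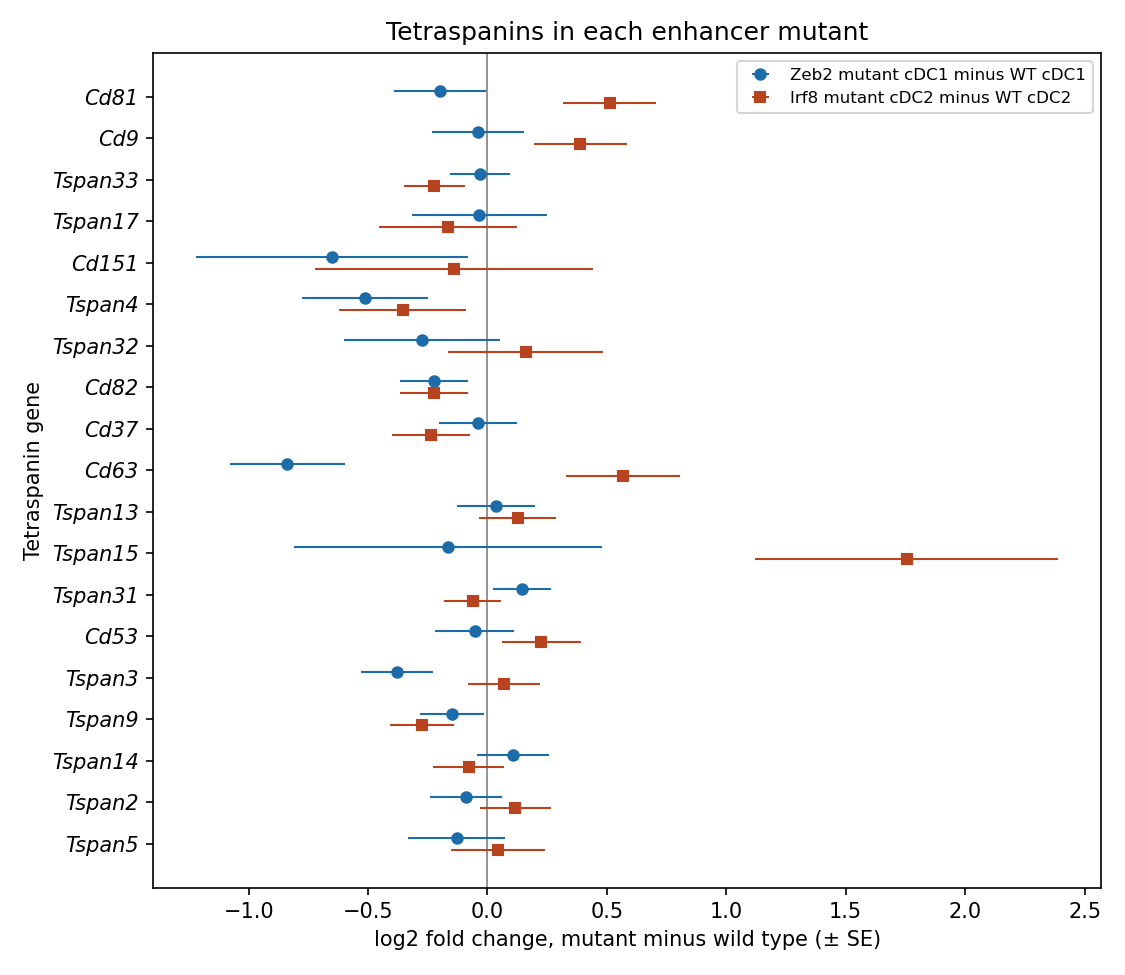
Log2 fold change of each tested tetraspanin between Zeb2 mutant and WT cDC1 (circles) and between Irf8 mutant and WT cDC2 (squares), with standard errors; 0 is WT of the same cell type. No gene passed the adjusted threshold in edgeR; Cd63 lies at -0.84 in the Zeb2 mutant and 0.57 in the Irf8 mutant, and Tspan15 at 1.76 in the Irf8 mutant.

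Cd63, the tetraspanin of late endosomes and exosomes, had the largest difference in Zeb2 mutant cDC1. It stood at 62.8 and 37.2 CPM in WT cDC1, 26.2 and 29.7 in Zeb2 mutant cDC1, 54.7 and 54.8 in WT cDC2 and 96.0 and 66.3 in Irf8 mutant cDC2. The Zeb2 mutant libraries were the lowest and the Irf8 mutant libraries the highest of the 8, and neither overlapped its WT group, although the 2 WT cDC1 libraries differed by 1.69 times. The log2 fold change was -0.84 in the Zeb2 mutant (SE 0.24, unadjusted p = 0.00584, adjusted p = 0.296) and 0.57 in the Irf8 mutant (SE 0.24, unadjusted p = 0.0389, adjusted p = 0.757), and these differed by -1.41 (SE 0.34, adjusted p = 0.348). The first value moved with either WT cDC1 library: without replicate 3 the log2 fold change was -1.13 and called (adjusted p = 0.00901), and without replicate 2 it was -0.40 (adjusted p = 0.568). DESeq2 gave -0.83 with an adjusted p of 0.0405. Between the cell types, Cd63 overlapped in WT (-0.13, SE 0.24, adjusted p = 0.732) and was 2.90-fold higher in the Irf8 mutant than in the Zeb2 mutant (-1.54, SE 0.24, adjusted p = 8.86e-04). Neutrophil markers, 5 in number, summed to 0.582 to 8.43 CPM in WT cDC1, 47.5 to 71.4 in the Zeb2 mutant, 0.909 to 11.3 in WT cDC2 and 27.1 to 32.5 in the Irf8 mutant. The sums lay above those of WT in both mutants, none of the 4 tested markers was called (adjusted p of at least 0.417), and their part in the values of Cd63 was not tested.

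Tspan15, a TspanC8 gene whose protein directs ADAM10 to N-cadherin in other tissues, was barely detected, with 17 and 22 counts in WT cDC1, 26 and 8 in Zeb2 mutant cDC1, 22 and 20 in WT cDC2 and 81 and 49 in Irf8 mutant cDC2. The Irf8 mutant libraries had the most reads. They reached 1.56 and 0.999 CPM, which was above WT cDC2 by a log2 fold change of 1.76 (SE 0.63, adjusted p = 0.705) and above the Zeb2 mutant by 2.09 (SE 0.64, adjusted p = 0.0342). The second difference lost its call in 5 of the alternatives (adjusted p 0.0619 to 0.225), among them without either Irf8 mutant library and without either WT cDC2 library. Cd81, in turn, was 0.51 higher in Irf8 mutant than in WT cDC2 on the log2 scale (SE 0.19, unadjusted p = 0.0246, adjusted p = 0.71), and its 2 mutant libraries lay above both WT cDC2 libraries. Tspan3 was lower in Zeb2 mutant than in WT cDC1 by -0.38 on the log2 scale (SE 0.15, unadjusted p = 0.0315, adjusted p = 0.423), without overlap of the libraries.

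Genes that work with tetraspanins were counted in the same comparisons. A list of 19 genes held Adam10, Adam17, another protease, and substrates of ADAM10. Of these genes, 2 were higher and 9 lower in WT cDC1, and 2 and 8 between the mutants, where 30.1% and 27.9% of all tested genes were called in either direction. Adam10 itself, the protease that TspanC8 proteins carry, stood at 74.98 and 75.54 CPM in WT cDC1, 102.4 and 96.9 in Zeb2 mutant cDC1, 116 and 125 in WT cDC2 and 123 and 131 in Irf8 mutant cDC2. It was thus lowest in WT cDC1 and 1.60-fold higher in WT cDC2 (log2 fold change -0.68, SE 0.12, adjusted p = 0.00157). Between the mutants the log2 fold change was -0.35, at the edge of the threshold (SE 0.12, adjusted p = 0.0499). Zeb2 mutant cDC1 lay above WT cDC1 by 0.41 on the log2 scale, which was not called (SE 0.12, adjusted p = 0.298). The median log2 fold change of that list was -0.67 in WT. Notch4, a receptor that ADAM10 can cleave, was 25.8-fold higher in WT cDC1 (154 ± 47.2 against 5.97 ± 0.404 CPM, mean ± SD, n = 2), and Efnb2, a ligand of Eph receptors, was lower (1.23 ± 1.14 against 28.3 ± 2.62 CPM).

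Among 40 membrane partners of tetraspanins, 9 were higher and 14 lower in WT cDC1, and 10 and 13 between the mutants, beside the same 30.1% and 27.9% of all tested genes, with a median log2 fold change of -0.33 in WT. The integrin subunit genes Itgb3 and Itgam were 59.2-fold and 44.6-fold lower in WT cDC1 (Itgb3 at 1.72 ± 0.280 against 101.8 ± 13.5 CPM, n = 2). The co-receptor Cd8a was 42.3-fold higher and Cd4 25.0-fold lower, and both are markers of the 2 cell types. The scavenger receptor Cd36 was 32.9-fold higher in WT cDC1 and the growth factor receptor Met 21.1-fold higher. Ifitm1, an interferon-induced membrane protein, was 20.2-fold lower and Clec7a, the Dectin-1 receptor that CD37 stabilises at the surface, 18.4-fold lower (44.1 ± 21.0 against 810.6 ± 75.6 CPM, n = 2). Clec7a thus differed strongly between the cell types while Cd37 did not pass the test. Itgb1 and Itga6, subunits of integrins that bind Cd9, Cd81 and Cd151, were higher in WT cDC1 (log2 fold changes 0.82 and 1.86, adjusted p = 3.44e-04 and 4.38e-05). Of the other integrin genes on the list, Itga3 and Itgal were also higher, and Itga5, Itgb2 and Itga2b were not called. Itga4 was lower, as Itgb3 and Itgam were, with a log2 fold change of -1.02 (adjusted p = 3.8e-04).

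Of 20 exosome and late endosome genes, which share their compartment with Cd63, 2 were higher (Rab11a and Smpd3) and 2 lower (Lamp1 and Lamp2) in WT cDC1, and 2 and 4 between the mutants, beside 30.1% and 27.9% of all tested genes called in either direction, with a median log2 fold change of 0.04 in WT. Their summed level was 2191 to 2461 CPM in WT cDC1 and 2418 to 2473 in WT cDC2. Of 4 tetraspanin genes that the naming rule leaves out, Prph2, Rom1, Upk1a and Upk1b, 2 were tested, and neither passed the threshold in WT (adjusted p = 0.777 for Prph2 and 0.555 for Rom1). Rom1 had the highest level of the 4, at 2.99 and 3.60 CPM in WT cDC1 and WT cDC2. Over the 81 listed genes that were tested, edgeR called 0 in each mutant and 0 for the difference of the effects. The smallest adjusted p was 0.0636, for Itgb3 in the Zeb2 mutant. An unadjusted p under 0.05 was found for 16 in the Zeb2 mutant, 7 in the Irf8 mutant and 13 for the difference. DESeq2 called 6, 1 and 2 in the same order. Of all 20631 tested genes, 1135 raised and 1041 lowered, 687 and 626, and 785 and 788 had such an unadjusted p, in that order. DESeq2 called 158 and 147, 76 and 75, and 81 and 81 of them. Whether the listed genes differ from all genes in these shares was not tested.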

How the data were processed

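RNA-seq was made from 8 libraries of sorted splenic cDC1 and cDC2 (100000 cells, 10 ng of RNA, reads of 150 bases, a kit that does not mark strand, per the labels' protocols). The tools named per the submitters' processing notes are bcl2fastq, STAR, Subread, featureCounts 2.0.32 and Salmon 1.5.23, and the builds GRCm38 and mm10; how strand and shared reads were handled is not given in the sources used here. The authors' files hold whole-number counts, CPM, FPKM and TPM for each gene, per the file headers. A check showed that the deposited CPM and FPKM columns follow from the counts and exon lengths, and the deposited TPM column was not used. The genes' symbols came from GENCODE M21, which held 55227 of the 55487 gene IDs.

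The counts entered edgeR 4.0.16 in R 4.3.3 (TMM scaling, filterByExpr with the 4 groups, robust quasi-likelihood fit, 1 coefficient per group over 8 libraries, 4 residual degrees of freedom, 20631 genes tested, common biological coefficient of variation 0.286). The call threshold was an adjusted p (Benjamini-Hochberg) under 0.05. A standard error is the absolute log2 fold change divided by the root of its F statistic, and a fold is the ratio of 2 group means of TMM-normalised CPM. A level per kilobase divides that CPM by the deposited exon length. The fit was also run on simulated counts, where it missed most of the smallest differences and made some false calls. Alternatives were DESeq2 1.42.0, its size factors in edgeR, no count filter, a gene length trend removed, the compared groups alone, the replicate number as a block, and each library left out. Values in every library are given for tetraspanins called in at least 1 comparison or at 100 CPM or more; of the partner lists, the 10 largest called folds without overlap and at 5 CPM or more in the higher group are named, and other genes named were chosen after their values were seen. The members and lists were chosen with earlier results of these data known. Promoter windows came from the RefSeq table of GRCm38.p6, matched by symbol to 26 of the 27 genes.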

Additional observations from a re-analysis of the deposited data

How the results depend on the processing

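With 2 libraries a group and 4 residual degrees of freedom, each call rests on few samples, and genes near or under 1 CPM (Tspan15, Cd151 and the 8 untested genes) are limited by depth. Reads in exons shared with a gene on the other strand could not be separated. Across 45 gene comparisons recomputed under the alternatives, 586 of 628 values kept their direction and side of the threshold, 21 lost and 10 gained a call, and 11 changed sign, each for a gene that was not called. Cd81, Cd9, Tspan33, Tspan2, Tspan5, Tspan9, Tspan14 and Tspan3 kept both cell type calls under every alternative run.

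The number of tetraspanins called higher in WT cDC1, 5 in edgeR with all libraries, was 3 with a gene length trend removed and 3 to 5 with a library left out (3 without WT cDC2 replicate 2). The number called lower in the Zeb2 mutant, 0 in edgeR with all libraries, was 1 with DESeq2, 1 without the count filter and 0 to 1 with a library left out (1 without WT cDC1 replicate 3). For the difference of the mutant effects it was likewise 1 with DESeq2, 1 without the filter and 0 to 1 with a library left out; each of these calls was Cd63. The cause was not tested. With a gene length trend removed, the WT log2 fold change of Cd82 was -0.0446 and of Tspan15 0.0427, and that of Tspan31 between the mutants was -0.14. With a library left out, WT log2 fold changes ranged from -0.0333 to 0.16 for Cd82, -0.0703 to 0.44 for Tspan32, -0.57 to 0.20 for Cd63 and -0.47 to 0.0752 for Tspan13. Between the mutants they ranged from -0.0477 to 0.26 for Cd82, -0.0669 to 0.38 for Cd37 and -0.00386 to 0.11 for Tspan31. Over all genes, the calls in the Zeb2 mutant were 3 higher and 11 lower in edgeR against 158 and 147 in DESeq2, in the Irf8 mutant 0 and 0 against 76 and 75, and for the difference of effects 0 and 4 against 81 and 81.

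The replicate numbers pair no samples by the labels, and the deviations of same-numbered libraries correlated at -0.0255 to -0.00147 between groups. With the replicate block, 4 tetraspanins were called higher and 5 lower in WT cDC1 and 4 and 8 between the mutants, so Tspan4 alone lost its call, and 0 in the other comparisons.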

Other observations

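Several tetraspanin genes have another tetraspanin as a neighbour in the genome. On chromosome 7 (GRCm38), Tspan32 at chr7:143005046-143019644 precedes Cd81 at chr7:143052739-143067934; Cd81 was 6.28-fold higher in WT cDC1, while Tspan32 had a log2 fold change of 0.14 (SE 0.33) and was not called. Cd151 at chr7:141467392-141471473 lies beside Tspan4 at chr7:141475240-141493427, and both stayed under 10 CPM. On chromosome 6, Tspan11 at chr6:127887589-127953977, hardly detected, lies beside Tspan9 at chr6:127961396-128143594, which was 1.97-fold lower in WT cDC1. Cd9, on the same chromosome at chr6:125460266-125494791 but far from both, was 2.76-fold higher in WT cDC1. Whether neighbours differ more or less than other gene pairs was not tested.

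Among the 8 untested tetraspanins, the reads were few and unevenly spread. Tspan11 had 33 counts in WT cDC1 replicate 3, 0 in replicate 2 and at most 2 in any other library. Tspan7, a neuronal tetraspanin also known from dendritic cells, had 19 and 6 counts in Irf8 mutant cDC2, 0 and 0 in WT cDC2, 8 and 4 in WT cDC1 and 6 and 4 in Zeb2 mutant cDC1. Tspan10 had 8 and 15 counts in WT cDC1, 0 and 0 in Zeb2 mutant cDC1, 6 and 2 in WT cDC2 and 6 and 0 in Irf8 mutant cDC2. These genes entered no test, and the counts are given as they stand.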
